A study of Mus musculus with 4 samples.

Results

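The lysosome and proton pump genes described here are 37 genes chosen by symbol, of the 32285 genes in the count tables: 16 of the vacuolar proton pump, 6 of the lysosomal membrane and of cholesterol export, 12 lysosomal hydrolases with an activator protein, and 3 transcription factors. They were measured by droplet single-cell RNA sequencing of phagocytes sorted from hearts of adult mice as CD64+ cells (CD45+, CD11b+, Ly6G negative, Ly6C low). Mice were injected with PBS or with carboplatin, a platinum drug that damages DNA, given at 45 mg/kg into the abdomen 2 times a week for 2 weeks, and then recovered for 4 weeks. An implanted pump next released either saline or a mix of angiotensin II at 1.5 mg/kg and PE at 50 mg/kg each day, and hearts were taken on day 7. The mix is called AngII/PE. Values for the 4 groups are given in a fixed order: PBS then saline (PBS saline), carboplatin then saline (carboplatin saline), PBS then AngII/PE, and carboplatin then AngII/PE. Each group is 1 library of 5 pooled mice of both sexes, so replicate spread is unknown, comparisons are between libraries, and none of them has a test or a p-value. Sources used here do not name the strain. The sort gate and the pooling of sexes limit the groups as models of the whole heart, and in summed counts fewer cells of a type and less RNA per cell cannot be told apart.

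Lysosomes are the acid compartments in which macrophages break down what they take up. The vacuolar proton pump acidifies them: its V1 sector on the cytosolic side hydrolyses ATP, its V0 sector in the membrane carries the protons, and accessory proteins help to assemble it. Hydrolases inside then cut lipids, sugars, proteins and ceramides, while membrane proteins protect the limiting membrane, release calcium and hand cholesterol out of the organelle. Tfeb, Tfe3 and Mitf are related transcription factors that bind E-box sequences and are known as regulators of lysosomal genes. Resident macrophages of the heart use this system to clear dying cells and debris of cardiomyocytes.

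The promoter sequences are shown because the E-box, CACGTG, and its longer form, TCACGTGA, are the letters that these 3 factors are known to recognise. RefSeq promoter windows of the GRCm38.p6 build, which run from 250 bases before to 50 after a transcription start, were found for 30 of the 37 members (38 windows). TCACGTGA lay in 4 of the 38 windows (10.5%), against 0.974% of the 32851 windows of all genes. CACGTG, which is also the core of the longer motif, lay in 8 of the 38 (21.1%), against 7.15% of all. Both motifs read the same on either strand. The windows with the longer motif belong to Atp6v0d1, Atp6v0e, Atp6v1a and Mcoln1, and that of Lamp1 is added for its repeated shorter motif. From each window a stretch of 40 bases is shown, 5′ to 3′ on the strand of the gene, with the motif in capitals. The stretches lie at chr8:105566045-105566084 (minus strand) for Atp6v0d1, chr17:26676382-26676421 (plus strand) for Atp6v0e, chr16:44139368-44139407 (minus strand) for Atp6v1a, chr8:3500457-3500496 (plus strand) for Mcoln1 and chr8:13159083-13159122 (plus strand) for Lamp1.
Atp6v0d1: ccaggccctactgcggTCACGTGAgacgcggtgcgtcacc
Atp6v0e: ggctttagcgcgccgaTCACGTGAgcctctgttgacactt
Atp6v1a: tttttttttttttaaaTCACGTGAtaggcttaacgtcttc
Mcoln1: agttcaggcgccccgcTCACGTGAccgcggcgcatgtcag
Lamp1: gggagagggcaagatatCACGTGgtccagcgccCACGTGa
The other members with the shorter motif were Atp6v0b, Gaa and Glb1. A match describes the letters only and was not read as a bound site, and a window without a match says nothing about the factors.

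The filters kept 4310, 3484, 3849 and 5669 cells, and the libraries shared 1 to 10 kept cell barcodes in pairs. Macrophage-like cells, a class rebuilt here from markers and not the authors' annotation, numbered 1952, 1017, 2117 and 3895, with 27980916, 17071365, 32104282 and 56294101 UMIs (molecule counts). All 10 macrophage markers were detected in each library, among them Csf1r, the receptor for a macrophage growth factor, at 899, 837, 1006 and 1031 CPM (UMIs per 1e6 UMIs of the class). Different clusters held most of the class in saline and AngII/PE libraries. A cluster with resident macrophage markers (cluster 0) held 91.1% and 82.4% of it under saline and 4.20% and 1.21% under AngII/PE. There, clusters 1 (no subset name, led by Ccl8 and Fcrls), 2 (MHC class II) and 3 (inflammatory) held most of it. Clusters with macrophage markers that were left unnamed, by thresholds set after seeing the data, held 27.7%, 36.5%, 24.1% and 16.5% of kept cells. Among macrophage-like cells with a sex call, 45.6%, 54.9%, 29.3% and 49.5% were female.

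Under AngII/PE, most lysosome and proton pump genes stood at a higher level in macrophage-like cells than under saline, by a modest amount. Of the 36 members with a mean of at least 10 CPM, 29 were above both saline libraries in both AngII/PE libraries, as were 40.3% of the 8493 genes that passed this minimum. Only Tfeb among the 36 lay below both saline libraries in both AngII/PE libraries, as did 35.7% of all genes compared. The median log2 ratio of AngII/PE to saline was 0.40 after PBS and 0.45 after carboplatin, whereas the medians over all genes compared were 0.005 and 0.04. After PBS, 31 of the 36 had a ratio above 0 on the log2 scale. There 7 were at least 1.5-fold higher, against a background of 8.14% of genes, and 0 at least 1.5-fold lower, against 8.91%. After carboplatin, 34 of the 36 were above 0. There 8 were at least 1.5-fold higher, against 7.62%, and 0 at least 1.5-fold lower, against 7.52%. This count of 8 depends on the processing: it was 14 with TMM scaling (11.1% of all genes), 13 with the unnamed macrophage clusters included (9.57%) and 17 with all kept cells (8.66%). In female-called cells it was 6 and in male-called cells 12. The share of all genes past 1.5-fold is not given for these cells, so the 2 counts were not read against each other. The medians of the members there were 0.43 and 0.47, and those of all genes 0.02 and 0.06. By role, the proton pump members had medians of 0.35 after PBS and 0.53 after carboplatin, the membrane proteins 0.52 and 0.45, the hydrolases 0.46 and 0.50, and the transcription factors -0.10 and -0.08.

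**Figure D1:**
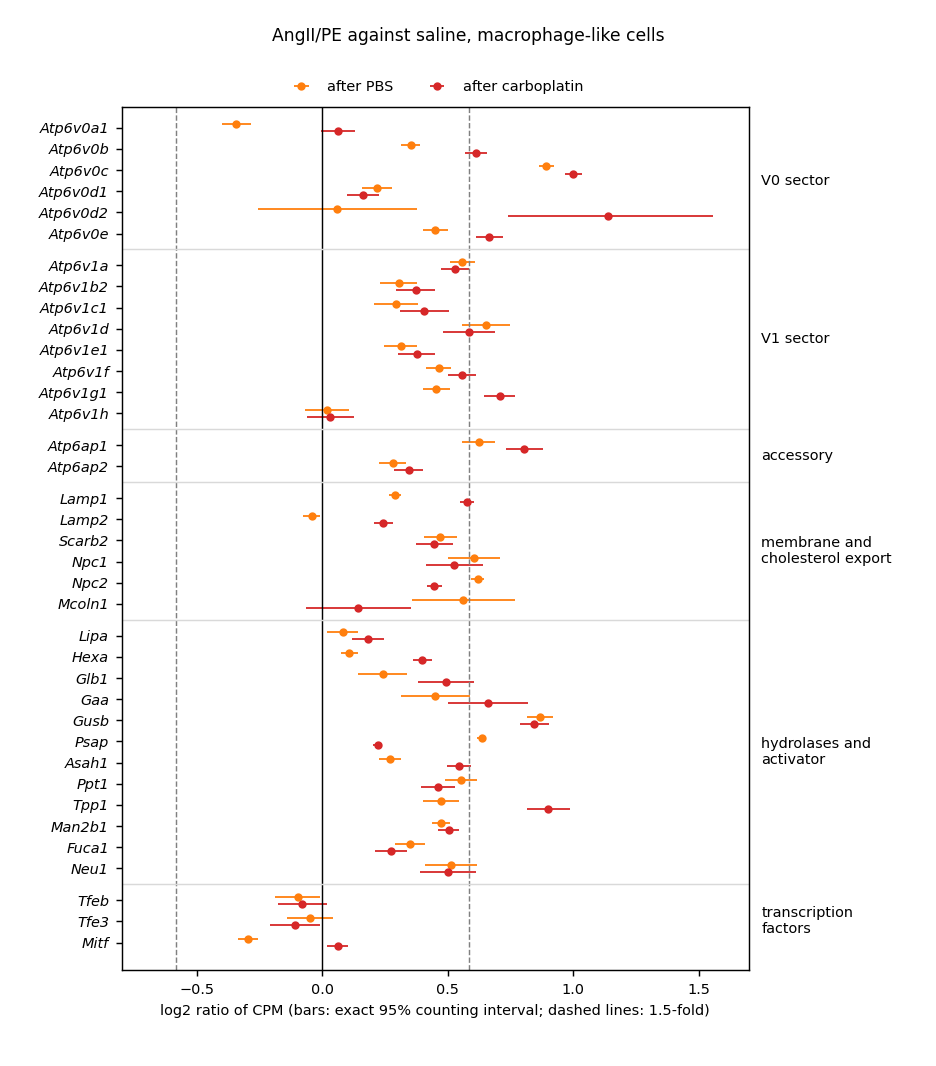
Log2 ratio of CPM, AngII/PE against saline, in macrophage-like cells for all 37 members by role (points), after PBS and after carboplatin, with exact 95% counting intervals (bars) and 1.5-fold marked by dashed lines. Most points lie to the right of 0, with Atp6v0c at 0.89 and 1.00 and Gusb at 0.87 and 0.84, while Tfeb and Tfe3 lie at or just below 0.

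The macrophage-like cells differed between saline and AngII/PE in other measured ways too. The summed level of 12 immediate-early genes, which respond to cell handling, was 11480, 9372, 7187 and 7374 CPM. Of these genes, 0 were at least 1.5-fold higher under AngII/PE, while 6 were at least 1.5-fold lower after PBS and 3 after carboplatin. Summed fibroblast markers (8 genes, 0 of them at 0 in any library) were at 128, 168, 267 and 299 CPM, against 35210 CPM in fibroblast-like cells. Summed endothelial markers (9 genes, 0 of them at 0 in any library) were at 43.7, 55.4, 70.3 and 62.8 CPM. Whole libraries differed in quality as well. Barcodes at or over the mitochondrial limit of 10% were 31.1%, 43.2%, 30.9% and 22.7%, highest in carboplatin saline. The filters kept 62.4%, 49.4%, 64.2% and 70.8% of barcodes. An unnamed cluster with macrophage markers, led by ribosomal RNA transcripts (cluster 7), held 389, 532, 218 and 89 cells. The part of all these in the members' ratios was not tested.

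In the V0 sector, which forms the proton path, the member with the highest ratio was Atp6v0c, which encodes the main proteolipid of the rotating ring. Its level was 522, 489, 970 and 978 CPM, so both AngII/PE libraries stood well above both saline libraries. The ratio was 1.86 (95% counting interval 1.82 to 1.89) after PBS, and after carboplatin the log2 ratio was 1.00 (0.97 to 1.03). The gene lies on chromosome 17 of GRCm38, from 24163866 to 24169702 on the minus strand. Atp6v0b, another proteolipid of the ring, was at 332, 298, 424 and 455 CPM. It followed the same order, with ratios of 1.28 (1.24 to 1.31) and 1.53 (1.48 to 1.58). The small subunit gene Atp6v0e was at 199, 191, 272 and 303 CPM, with ratios of 1.37 (1.32 to 1.41) and 1.59 (1.53 to 1.65). Atp6v0d1, which joins the ring to the central stalk, was at 143, 149, 166 and 167 CPM, the smallest difference of the 4 that lay above saline in both libraries (ratios 1.16 and 1.12).

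Atp6v0a1, an isoform of the large subunit that holds the proton half-channels, did not share this order. Its level was 183, 131, 144 and 136 CPM, so that PBS saline stood above the other libraries, which lay close together. AngII/PE against saline gave a log2 ratio of -0.34 (-0.40 to -0.29) after PBS and 0.06 (-0.01 to 0.13) after carboplatin. In female-called cells these values were -0.07 and -0.11, and in male-called cells -0.57 and 0.18, and in PBS saline its level was 156 CPM in female-called and 214 CPM in male-called cells. Atp6v0d2, an isoform of the d subunit known from osteoclasts and some macrophages, was below the minimum and was left out of the counts and medians. It stood at 5.47, 3.46, 5.70 and 7.60 CPM, from 153, 59, 183 and 428 UMIs, and in PBS saline 25 of the 153 UMIs came from 1 cell. Its log2 ratios of AngII/PE to saline were 0.06 (-0.26 to 0.38) and 1.14 (0.74 to 1.56), and without that cell the first was 0.32 (-0.02 to 0.65).

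All 8 members of the catalytic V1 sector had a log2 ratio above 0 in both comparisons, from 0.02 to 0.65 after PBS and from 0.03 to 0.71 after carboplatin. Atp6v1d, a subunit of the central rotor, was at 49.1, 54.5, 77.1 and 81.7 CPM. Its ratios were 1.57 (1.47 to 1.68) after PBS and 1.50 (1.40 to 1.61) after carboplatin, the latter just under 1.5. Atp6v1g1, of the outer stalk, was at 167, 151, 228 and 246 CPM, with ratios of 1.37 (1.32 to 1.42) and 1.63 (1.57 to 1.70). Atp6v1a, the subunit that hydrolyses ATP, was at 186, 181, 274 and 262 CPM, with ratios of 1.47 (1.42 to 1.52) and 1.44 (1.39 to 1.50). For these 3 genes both AngII/PE libraries lay above both saline libraries. At the other end, Atp6v1h, a regulatory subunit, was at 70.3, 68.5, 71.2 and 70.0 CPM, with a highest to lowest ratio over the 4 libraries of 1.04. Its direction did not hold under all settings: in male-called cells the log2 ratio after PBS was -0.10, and with all kept cells that after carboplatin was -0.02. Atp6v1b2, Atp6v1c1, Atp6v1e1 and Atp6v1f, of the catalytic head, the stalks and the rotor, had log2 ratios of 0.29 to 0.46 after PBS and 0.37 to 0.56 after carboplatin.

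Both accessory genes of the pump lie on the X chromosome. Atp6ap1, an assembly subunit, was at 105, 101, 162 and 176 CPM, with both AngII/PE libraries above both saline libraries. Its ratios were 1.54 (1.47 to 1.61) after PBS and 1.75 (1.66 to 1.84) after carboplatin. Within sexes, the log2 ratios were 0.57 and 0.70 in female-called and 0.68 and 0.96 in male-called cells. Atp6ap2, also known as the prorenin receptor, was at 169, 177, 206 and 224 CPM, with ratios of 1.21 (1.17 to 1.26) and 1.27 (1.22 to 1.32). Its log2 ratios were 0.47 and 0.40 in female-called and 0.17 and 0.29 in male-called cells.

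Among the membrane and cholesterol export genes, both Niemann-Pick proteins were higher under AngII/PE. Npc2, the soluble carrier that picks cholesterol up inside the lysosome, was at 613, 722, 942 and 984 CPM, and its ratios were 1.54 (1.51 to 1.57) after PBS and 1.36 (1.34 to 1.39) after carboplatin. Npc1, the membrane protein that takes it over, was at 41.8, 44.9, 63.5 and 64.6 CPM, with ratios of 1.52 (1.41 to 1.63) and 1.44 (1.33 to 1.56). For both genes the saline libraries lay below the AngII/PE libraries. After PBS, however, the log2 ratios were lower in female-called cells (0.44 for Npc2 and 0.45 for Npc1, both under 1.5-fold) than in male-called cells (0.81 and 0.75). The share of female-called cells was itself lower in PBS AngII/PE than in PBS saline, and its part in these ratios was not tested. Lamp1, a glycoprotein that coats the inner face of the membrane, was at 761, 697, 930 and 1041 CPM, with log2 ratios of 0.29 (0.27 to 0.32) and 0.58 (0.55 to 0.61). Its relative Lamp2, which also serves autophagy, was at 476, 425, 462 and 502 CPM. Here the groups overlapped, since PBS AngII/PE lay below PBS saline, and the log2 ratios were -0.04 and 0.24. Mcoln1, a calcium channel of the lysosome, was at 11.3, 14.1, 16.7 and 15.5 CPM, with log2 ratios of 0.56 (0.36 to 0.77) and 0.14 (-0.06 to 0.36). Scarb2, which carries glucocerebrosidase to the lysosome, had log2 ratios of 0.47 and 0.45.

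All 12 hydrolase and activator genes had log2 ratios above 0 in both comparisons over all macrophage-like cells, though Glb1 and Lipa did not keep this direction under every setting. After PBS, Glb1 was at -0.01 for the female call and 0.54 for the male call. Lipa was at -0.03 after PBS without cluster 9, a cluster with markers of lipid-associated macrophages, and after carboplatin at -0.09 for the male and 0.40 for the female call. Gusb, which encodes beta-glucuronidase, was at 156, 161, 285 and 290 CPM, and both AngII/PE libraries stood well above both saline libraries. The gene lies on chromosome 5 of GRCm38, from 129989011 to 130003049 on the minus strand. Its ratios were 1.82 (1.76 to 1.89) after PBS and 1.80 (1.72 to 1.87) after carboplatin. Tpp1, a peptidase that removes tripeptides, was at 89.9, 76.1, 125 and 142 CPM, with ratios of 1.39 (1.32 to 1.46) and 1.87 (1.76 to 1.98). Carboplatin saline was its lowest library and carboplatin AngII/PE its highest. Gaa, the acid alpha-glucosidase that degrades glycogen, was at 25.3, 22.4, 34.6 and 35.4 CPM, with ratios of 1.37 (1.24 to 1.50) and 1.58 (1.42 to 1.77).

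Psap, the precursor of the saposins that activate sphingolipid hydrolases, took another order. Its level was 1376, 1873, 2138 and 2181 CPM, with PBS saline well below the other libraries. The ratio was therefore 1.55 (1.53 to 1.57) after PBS and 1.16 (1.15 to 1.18) after carboplatin. Lipa, the acid lipase that frees cholesterol and fatty acids from lipoprotein lipids, had the lowest ratios of the hydrolases. It was at 138, 147, 146 and 166 CPM, so that carboplatin saline and PBS AngII/PE did not differ beyond counting error, and its log2 ratios were 0.08 and 0.18. Hexa, a subunit of beta-hexosaminidase, was at 459, 431, 495 and 569 CPM. Man2b1, an alpha-mannosidase, was at 359, 335, 497 and 475 CPM. Glb1, Asah1, Ppt1, Fuca1 and Neu1, which cut galactosides, ceramide, fatty acids on proteins, fucose and sialic acid, had log2 ratios of 0.24 to 0.55 after PBS and 0.27 to 0.55 after carboplatin.

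**Figure D2:**
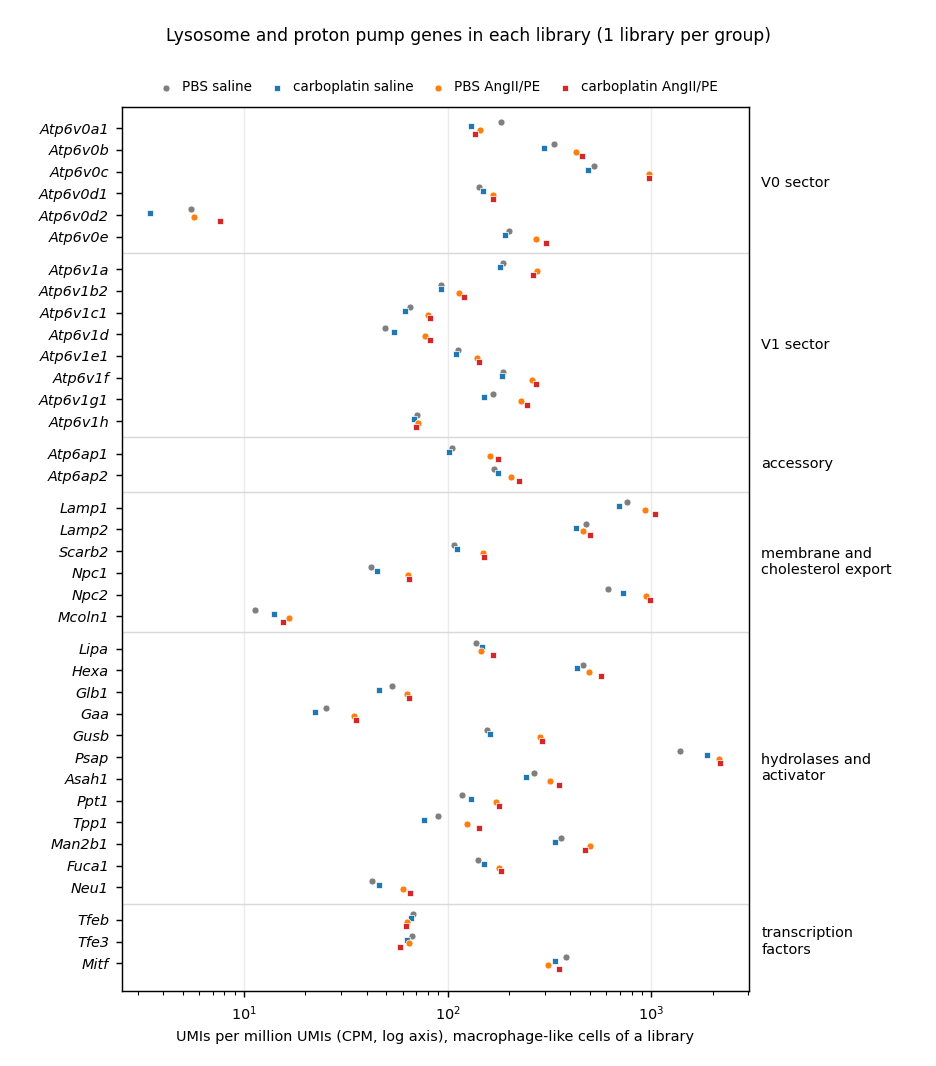
Level of each of the 37 members (CPM, log axis) in the macrophage-like cells of the 4 libraries, by role. For Atp6v0c the AngII/PE libraries stand at 970 and 978 CPM and the saline libraries at 522 and 489 CPM, whereas the 4 points of Atp6v1h and of Tfeb nearly coincide.

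The 3 transcription factors stayed within 1.5-fold of saline. Tfeb was at 67.8, 65.8, 63.3 and 62.2 CPM, and Tfe3 at 67.1, 63.1, 64.8 and 58.5 CPM. The log2 ratios of Tfeb were -0.10 (-0.19 to -0.01) after PBS and -0.08 (-0.18 to 0.02) after carboplatin. Those of Tfe3, which is X-linked, were -0.05 and -0.11, and within sexes they lay between -0.15 and 0.01. Mitf was at 383, 335, 312 and 350 CPM, highest in PBS saline and lowest in PBS AngII/PE. Its log2 ratios were -0.30 (-0.34 to -0.26) after PBS and 0.06 (0.02 to 0.10) after carboplatin. These are transcript levels, and the activity of the factors was not measured. Members whose promoter window holds CACGTG (8) had a median log2 ratio of 0.40 after PBS and 0.55 after carboplatin. The 22 matched members without it had medians of 0.47 and 0.42. These 22 include Tfeb, Tfe3 and Mitf themselves, and the difference between the sets was not tested.

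Carboplatin against PBS gave small ratios for nearly all members. Under saline the median log2 ratio of the 36 was -0.04, against -0.04 for all genes compared, and 14 lay above 0. Here 0 of the 36 were at least 1.5-fold higher or lower, against backgrounds of 1.65% and 2.15% of genes. Under AngII/PE the median was 0.05, against 0.004 for all genes, and 29 of the 36 lay above 0. Of these 29, only 18 stayed above 0 under all alternative settings. Again 0 of the 36 passed 1.5-fold in either direction, against 0.447% and 1.00%. Lipa was the sole member that was above both PBS libraries in both carboplatin libraries, as were 4.52% of genes. Atp6v0a1, Atp6v1h and Tfe3 were below both, as were 7.05% of genes.

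The largest carboplatin ratios were found under saline, where Psap was higher and Atp6v0a1 lower. For Psap the ratio was 1.36 (1.34 to 1.38) with saline, and with AngII/PE its log2 ratio was 0.03 (0.02 to 0.04). Atp6v0a1 was 1.40-fold lower (1.33 to 1.47) under saline and lower by a log2 ratio of -0.08 (-0.13 to -0.03) under AngII/PE. In female-called cells its log2 ratio under saline was -0.11 and in male-called cells -0.83, so its size differed between the sexes. Npc2 had log2 ratios of 0.24 and 0.06, and Mcoln1 of 0.32 (0.07 to 0.56) and -0.10 (-0.26 to 0.06). Tpp1 was lower under saline (-0.24) and higher under AngII/PE (0.19), and Glb1 was at -0.21 and 0.04. Among V1 subunits the ratios ran from -0.14 for Atp6v1g1 to 0.15 for Atp6v1d under saline, and from -0.07 for Atp6v1a to 0.11 for Atp6v1g1 under AngII/PE. Hexa had the highest ratio of the hydrolases under AngII/PE (0.20) and Man2b1 the lowest (-0.07). Under AngII/PE, Lamp1 stood at 0.16 and Atp6v0e at 0.16, and the accessory genes Atp6ap1 and Atp6ap2 at 0.13 and 0.13. For the transcription factors the values under saline were -0.04 for Tfeb, -0.09 for Tfe3 and -0.19 for Mitf, and under AngII/PE -0.03, -0.15 and 0.17. Each carboplatin ratio uses libraries that also enter the AngII/PE ratios, so the 4 comparisons are not independent.

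**Figure D3:**
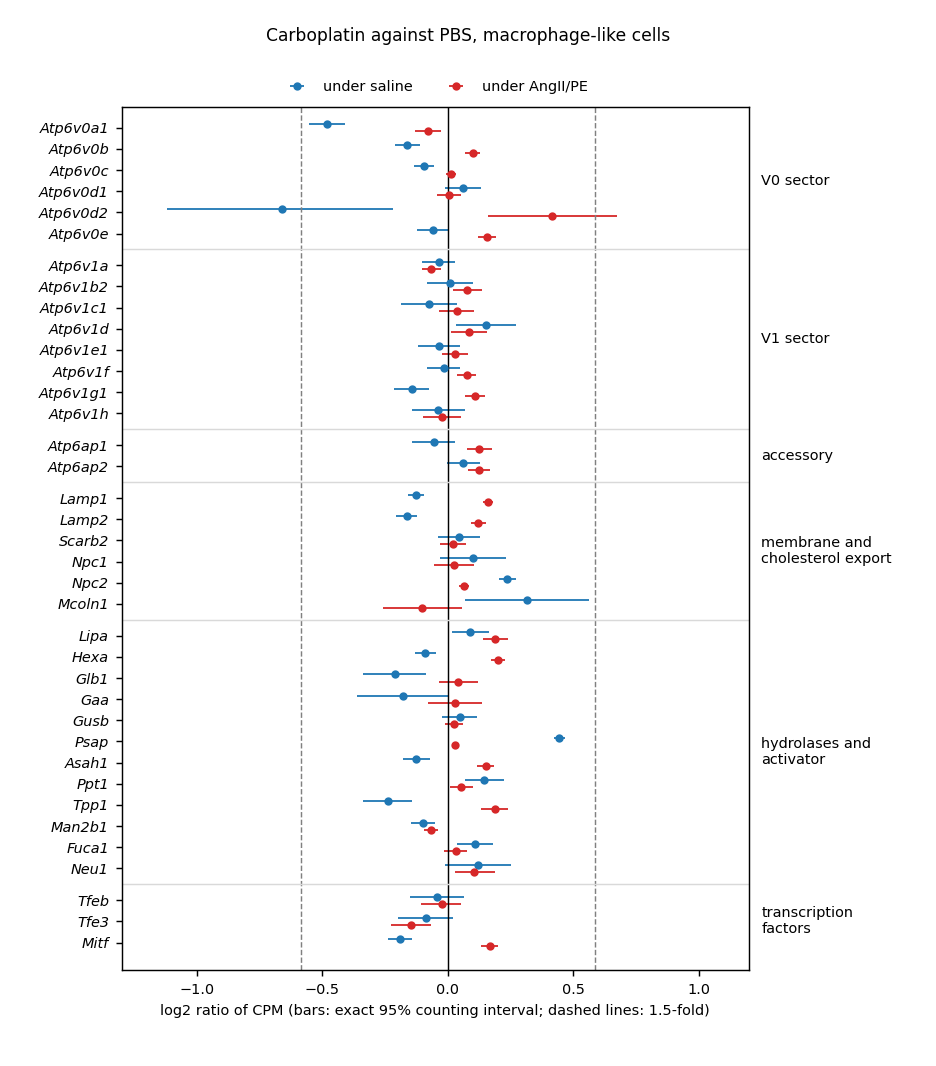
Log2 ratio of CPM, carboplatin against PBS, in macrophage-like cells for all 37 members by role (points), under saline and under AngII/PE, with exact 95% counting intervals (bars) and 1.5-fold marked by dashed lines. Of the 36 members with a mean of at least 10 CPM, 0 reach a dashed line, and the farthest from 0 are Atp6v0a1 (-0.48) and Psap (0.45) under saline; Atp6v0d2, with the widest bars, is below that minimum.

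The AngII/PE ratios were also computed within single clusters, since the class is made up differently under saline and AngII/PE. In cluster 0, the resident-like cluster, the median of the 36 was 0.30 after PBS (89 AngII/PE against 1778 saline cells) and 0.21 after carboplatin (47 against 838 cells). There 30 of 36 and 25 of 36 lay above 0, and the medians of all genes were 0.01 and -0.003. Within this cluster Atp6v0c stood at 0.46 and 0.76, Gusb at 0.41 and 0.47, and Tpp1 at 0.63 and 0.72, while Mitf lay below 0 in both (-0.12 and -0.31). In cluster 2 the medians were 0.27 and 0.28, with 88 and 100 saline cells. In clusters 1 and 3, with 24 to 29 saline cells each, they were 0.19 and 0.34, and 0.42 and 0.34. Cluster 12, with 25 and 17 saline cells, gave 0.21 and 0.58. Medians of all genes in clusters 1, 2, 3 and 12 lay between 0.025 and 0.127. Of the unnamed clusters with macrophage markers, cluster 5 gave 0.14 and 0.31, and cluster 6 gave 0.22 and 0.315. Cluster 7, an unnamed cluster led by ribosomal RNA transcripts, went the other way, with -0.18 and -0.09 (all genes 0.11 and 0.13). Cluster 9 gave -0.19 and 0.26 (all genes 0.04 and 0.18) from 10 and 9 saline cells, too few for a direction. Within sexes the class medians were 0.39 and 0.43 for female-called and 0.46 and 0.47 for male-called cells.

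Levels also differed between the macrophage-like clusters, as a description of clusters formed from these same genes. Cluster 9, which carries markers of lipid-associated macrophages such as Spp1 and Gpnmb, had the highest level of the 6 clusters for 31 of the 37 members over all libraries. Of the 36 members compared these were 30, as were 18.8% of all genes compared. It did so for 28 of the 37 within PBS AngII/PE (27 of the 36, against 18.9%) and for 30 within carboplatin AngII/PE (29 of the 36, against 19.7%), where it held 9.40% and 7.75% of macrophage-like cells. Atp6v0d2 showed the widest spread. Within PBS AngII/PE it was at 19.9 CPM (15.4 to 25.4) in cluster 9 and at 3.31 to 5.56 CPM in the other 5 clusters. Within carboplatin AngII/PE it was at 31.3 CPM (26.5 to 36.9) and at 2.89 to 6.78 CPM. Lipa followed the same pattern, with 253 CPM in cluster 9 and 113 to 144 CPM elsewhere in PBS AngII/PE, and 308 against 141 to 165 CPM in carboplatin AngII/PE. Npc1 was at 92.5 and 104 CPM in cluster 9 and at no more than 72.8 and 74.2 CPM in the others. Over all libraries cluster 0 had the lowest level for many members, such as Atp6v0c at 500 CPM against 1348 CPM in cluster 9. This ranking pools the libraries, and cluster 0 is almost all from saline. Atp6v0a1 was highest in cluster 0 when pooled (164 CPM), but in cluster 3 within PBS AngII/PE (163 CPM) and in cluster 1 within carboplatin AngII/PE (146 CPM). Without cluster 9 the count at least 1.5-fold higher after PBS was 5 in place of 7. The share of all genes without this cluster is not given here, so the change was not read as a part played by cluster 9.

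**Figure D4:**
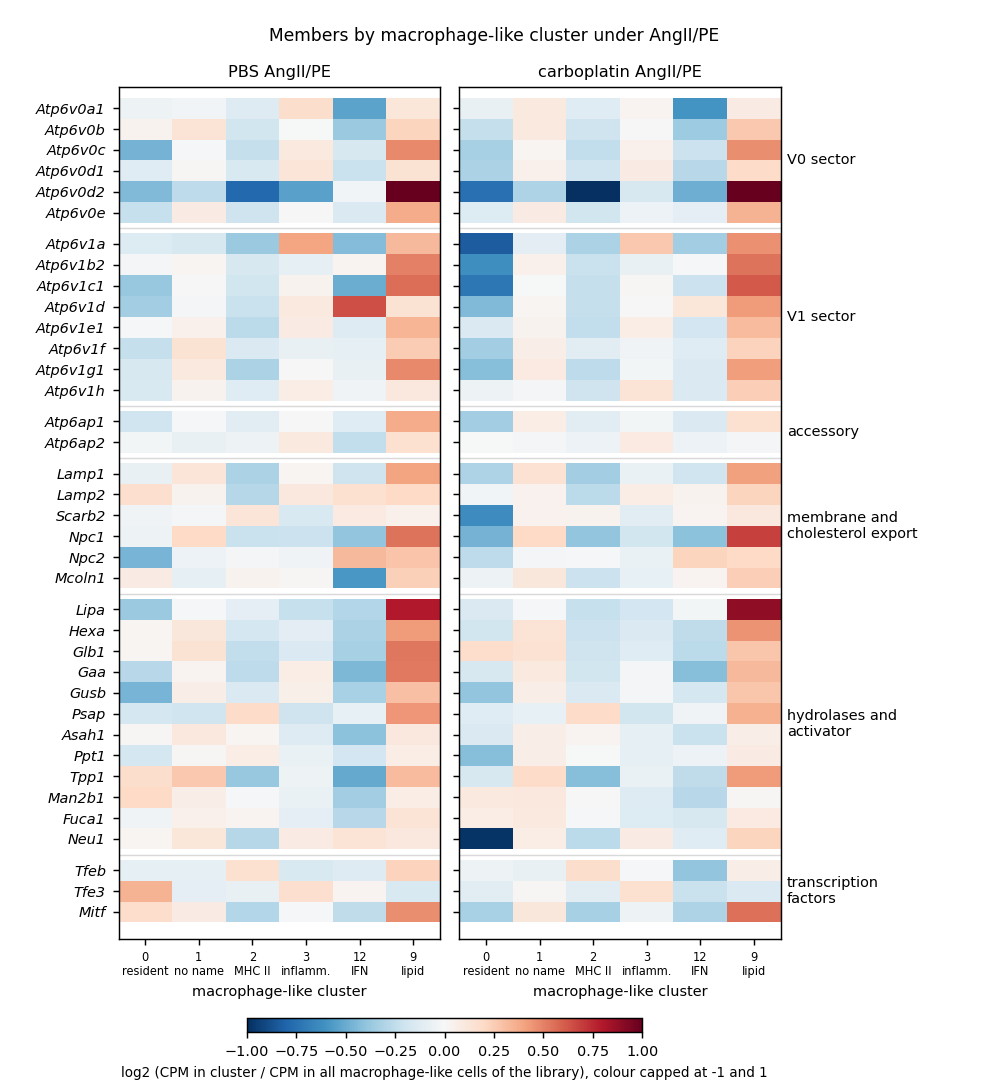
Level of each member in the 6 macrophage-like clusters within each AngII/PE library, as log2 of the cluster's CPM over the CPM of all macrophage-like cells of that library (colour, limited to -1 and 1). The column of cluster 9, the lipid-associated cluster, has the highest value for 28 and 30 of the 37 members, with Atp6v0d2 at 19.9 and 31.3 CPM there.

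Across the 11 named cell classes, macrophage-like cells had the highest level of 12 members and were among the top 2 classes for 24. Of the 36 members compared these were 11 and 23, as were 4.44% and 12.9% of all genes compared. All 37 were higher than in endothelial-like cells (median 2.29-fold) and 35 higher than in fibroblast-like cells. Of the 36 these were 36 and 34, as were 47.5% and 52.1% of all genes. The exceptions were Scarb2, at 136 CPM in macrophage-like and 211 CPM in fibroblast-like cells, and Gaa, at 31.4 and 72.0 CPM. Ppt1, which removes fatty acids from proteins, stood at 1089 CPM in dendritic-cell-like cells of type 1 and at 159 CPM in macrophage-like cells. Psap was at 3401 and 1963 CPM in the same pair of classes, and the former class had only 28 cells over all libraries. Tfeb was highest in patrolling-monocyte-like cells, at 167 CPM against 64.1 CPM in macrophage-like cells. Hexa (5.86-fold), Man2b1 (5.78-fold) and Mitf (6.37-fold) had the highest macrophage to endothelial ratios after Atp6v0d2 (12.1-fold), whose endothelial level rests on few UMIs. The named classes pool all 4 libraries here, so they mix the groups. The cardiomyocyte-like, neutrophil-like, cycling and B-cell-like clusters each held 10 of the 10 macrophage markers. A marker was held at 25% or more of its level in all kept cells. The part of macrophages or their RNA in these rankings was not tested.

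For Atp6v0d2, Mcoln1 and the 3 transcription factors the share of macrophage-like cells with at least 1 UMI was taken after thinning cells to 2000 UMIs. Left out at this depth were 8, 1, 13 and 22 macrophage-like and 109, 116, 21 and 35 endothelial-like cells. Atp6v0d2 was found in 0.772%, 0.591%, 1.47% and 1.47% of cells, and in 0 of 489, 439, 283 and 319 endothelial-like cells, which allows shares of up to 0.613%, 0.683%, 1.06% and 0.940% by 3 counts of the total. These limit the cells with a UMI at this thinned depth, not the cells that express the gene. Without thinning it was found in 5.28%, 4.72%, 5.76% and 6.24% of macrophage-like cells. Among endothelial-like cells 1, 1, 3 and 1 then held a UMI of it (0.167%, 0.180%, 0.987% and 0.283%). Mitf was found in 46.8%, 44.9%, 41.2% and 45.4%, against 5.47% to 10.2% of endothelial-like cells. Tfeb was found in 12.7%, 12.1%, 11.6% and 11.5%, against 8.18% to 9.89%. Tfe3 was found in 13.1%, 12.9%, 12.8% and 12.2%, against 3.07% to 5.02% of endothelial-like cells. Mcoln1 was found in 2.57%, 2.17%, 3.04% and 3.23%, within or near the 1.84% to 3.64% of endothelial-like cells, and no difference was read from this share. Median depths before thinning were 13538.5, 16381, 14931 and 14026 UMIs for macrophage-like and 5849, 6412, 9909 and 9943.5 UMIs for endothelial-like cells. All intervals and limits cover counting error only.

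Other genes of the same pathways were counted from lists drawn up for the comparison, with earlier results of these data known. The minimum of 10 CPM is a mean over the libraries. A gene below 10 CPM under saline can pass it through the AngII/PE libraries alone, and the counts include such genes. The counts stand beside 8.14% of all genes at least 1.5-fold higher and 8.91% lower after PBS, and 7.62% and 7.52% after carboplatin. Of 11 cathepsins and legumain compared, 7 were at least 1.5-fold higher under AngII/PE after PBS and 7 after carboplatin, with medians of 0.77 and 0.65, and 1 was lower in each. Ctsd, the main aspartic protease of lysosomes, led with 315, 252, 1325 and 1470 CPM (log2 ratios 2.07 and 2.55), followed by the cysteine protease Ctsl at 1.34 and 1.43. Ctsf was the lower gene, at -0.71 and -0.85, next to Ctsc after PBS (-0.13) and Ctso after carboplatin (0.05). Of 28 other hydrolases, 12 and 13 were at least 1.5-fold higher and 1 was lower in each comparison. Acp5, an acid phosphatase, stood at 1.74 and 1.55, and the sulfamidase Sgsh at 1.49 and 1.22. Sgsh passed the minimum through AngII/PE, at 7.255, 8.084, 20.34 and 18.85 CPM. Arsb, an arylsulfatase, was the lower gene, at 113, 110, 33.6 and 37.7 CPM (-1.75 and -1.54), and next to it were Hgsnat after PBS (-0.41) and Ids after carboplatin (-0.15). A list of 28 other membrane proteins holds genes not particular to the lysosome, such as Cd300lf. Of these 28, 6 and 10 were at least 1.5-fold higher, and 0 and 1 lower. Cd300lf (3.60 and 2.55) and Gpnmb (2.70 and 1.76) led this list, and Clcn6 (-0.51 and -0.66), Cd164 after PBS (-0.38) and Slc15a3 after carboplatin (-0.56) were lowest. Cd300lf was at 3.04, 5.21, 36.88 and 30.45 CPM, so it too passed the minimum through AngII/PE.

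Of 12 other pump subunits and assembly factors, 2 were at least 1.5-fold higher in each comparison, and 1 and 0 lower. Tcirg1, the isoform of the large V0 subunit known from osteoclasts, was at 62.9, 77.2, 133 and 134 CPM, with log2 ratios of 1.08 and 0.79, and so went opposite to Atp6v0a1 after PBS. Rogdi after PBS (0.81) and Rnasek after carboplatin (0.64) came next. Vma21, an assembly factor, was lowest after PBS (-0.73), and Ncoa7 was at -0.41 and -0.40, with Wdr7 at -0.22 after carboplatin. The 23 genes of nutrient sensing at the lysosome had medians of -0.003 and 0.14, with 1 and 2 at least 1.5-fold higher and 0 lower. Fnip2 stood at 0.72 and 0.74, Lamtor1 at 0.46 after PBS and Tfec, a relative of Tfeb, at 0.96 after carboplatin. Ppp3cb and Ppp3ca, of calcineurin, were lowest after PBS (-0.40 and -0.39), and Fnip1 and Tsc1 after carboplatin (-0.36 and -0.30). The 26 genes of autophagy and fusion had medians of 0.27 and 0.15, with 4 and 3 at least 1.5-fold higher and 0 lower. Map1lc3a stood at 0.86 and 0.74, Atg9a at 0.97 after PBS and Gabarapl2 at 0.67 after carboplatin, whereas Uvrag was at -0.32 and -0.52 and Snap29 at -0.30 and -0.14. Atg9a passed the minimum through AngII/PE, at 7.648, 8.377, 14.95 and 12.15 CPM. The 13 genes of hydrolase sorting had medians of 0.11 and 0.07, with 1 and 2 at least 1.5-fold higher and 0 lower. Gga2 stood at 0.71 and 0.67, M6pr at 0.44 after PBS and Vps29 at 0.59 after carboplatin, and Vps35 and Ap1b1 (-0.29 and -0.19), or Ap3b1 and Ap1m1 (-0.18 and -0.11), were lowest. Gga2 lay near the minimum under saline, at 9.9 and 10.7 CPM.

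Few genes of these further lists were past 1.5-fold for carboplatin against PBS. Under saline these were Tfec (-0.97) and Hgsnat (-0.74), both lower, and Cd300lf (0.78), higher. Of all genes compared, 2.15% were at least 1.5-fold lower and 1.65% higher under saline, and 1.00% and 0.447% under AngII/PE. The small number is thus not read as a trait of these lists. The Cd300lf ratio rests on low levels, 3.04 CPM in PBS saline and 5.21 CPM in carboplatin saline. For the cathepsins under saline the ends were Ctsf (-0.38), Ctsd (-0.32), Ctss (0.38) and Ctso (0.21), and under AngII/PE Ctsf (-0.52), Ctsa (0.01), Ctsc (0.27) and Ctsd (0.15). For the other hydrolases they were Hgsnat, Aga (-0.39), Gm2a (0.45) and Gla (0.43), and under AngII/PE Pld3 (-0.11), Sgsh (-0.11), Aga (0.33) and Siae (0.27). For the other membrane proteins they were Cd63 (-0.42), Pqlc2 (-0.29), Cd300lf and Gpnmb (0.41), and under AngII/PE Gpnmb (-0.54), Clcn6 (-0.42), Laptm4a (0.26) and Cd164 (0.23). For the other pump genes they were Vma21 (-0.45), Oxr1 (-0.31), Tcirg1 (0.30) and Rogdi (0.19), and under AngII/PE Dmxl2 (-0.25), Rogdi (-0.05), Dmxl1 (0.23) and Ccdc115 (0.17). For the sorting, sensing and autophagy lists all the other ends lay between -0.33 (Foxk2) and 0.35 (Wipi2) under saline and between -0.30 (Atg9a) and 0.25 (Tfec) under AngII/PE.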

How the data were processed

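The deposited files give UMI counts for each gene in each barcode, without normalization. The authors made them with Cell Ranger 7.1.0 per the file headers (version 3 per the labels' protocols) on mm10, per the labels. The sources used here do not say whether intronic reads count. Cells were kept by the filters in the series' design text (mitochondrial share under 10%, under 30000 UMIs, 500 to 7000 genes), which left 17312 of 27968 barcodes with a median of 11848 UMIs. Scrublet (scanpy 1.11.5) marked 49 cells (0.283%), too few for a working call, so none were removed. Cells were clustered with SCTransform (sctransform 0.4.2, Seurat 5.3.0, R 4.3.3), 80 components and resolution 0.6, giving 23 clusters that were named from marker lists. A class needed at least 60% of a list's markers. A macrophage-like cluster needed 7 of 10 macrophage markers, over 50% of its libraries' median UMIs, and fewer than 3 ribosomal RNA transcripts among its leading genes. These thresholds were set after seeing the data.

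UMIs were summed per library and class and divided by the class total to give CPM. Ratios carry exact conditional binomial 95% intervals, levels exact Poisson intervals and shares exact Clopper-Pearson intervals, which cover counting error only. The ratio and interval were run on counts simulated from all kept cells with Poisson error, the error that the interval assumes. That run checks the calculation only and says nothing of the spread between cells or mice. Sex was called per cell from sex-linked transcripts. A count of 0 was read against 3 counts. Alternatives included edgeR 4.0.16 (TMM) and DESeq2 1.42.0 scaling factors. Members and lists were chosen with earlier results of these data known. Members at least 1.5-fold different, those with the highest and lowest ratio per role and comparison, and the 2 highest and 2 lowest of each further list are named, except that the carboplatin ends of the sorting, sensing and autophagy lists are given by range. Gene positions and promoters came from GENCODE M21 and RefSeq, where 7 members had no promoter entry.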

Additional observations from a re-analysis of the deposited data

Results flagged for a closer look

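Some members went opposite ways in the arms of a comparison with counting intervals that exclude a ratio of 1 in each. The differences between the arms were not tested, since each group is 1 library. With many UMIs per gene, such intervals exclude 1 for small differences too. The share of all genes that meet this rule was not counted, so the set is not read as a trait of the members. For AngII/PE against saline, Lamp2 had a log2 ratio of -0.043 after PBS and 0.243 after carboplatin, and Mitf of -0.296 and 0.062. In female-called cells Mitf was at -0.37 and -0.18 and in male-called cells at -0.28 and 0.27, so its sign after carboplatin differed between the sexes.

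For carboplatin against PBS the ratios were below 1 under saline and above 1 under AngII/PE. Pump genes in this set were Atp6v0b (-0.161 and 0.099), Atp6v1g1 (-0.144 and 0.108) and Atp6v0d2 (-0.662 and 0.416). The Atp6v0d2 values rest on 59 to 428 UMIs per library, and 25 of the 153 UMIs in PBS saline came from 1 cell. Without that cell the value under saline was -0.41, with an interval of -0.88 to 0.05 that includes a ratio of 1. With the cell of most UMIs left out of each library the values were -0.53 (-1.02 to -0.06) and 0.42 (0.16 to 0.69). Opposite signs were found in neither sex: the values were -0.90 and -0.31 in female-called and 0.15 and 0.87 in male-called cells. Membrane genes were Lamp1 (-0.126 and 0.162) and Lamp2 (-0.164 and 0.122). Hydrolase genes were Hexa (-0.090 and 0.201), Asah1 (-0.125 and 0.152) and Tpp1 (-0.240 and 0.187). Mitf was at -0.191 and 0.167. For Tpp1 the same signs were found in female-called (-0.26 and 0.26) and male-called cells (-0.22 and 0.13).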

How the results depend on the processing

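The 17 alternatives left the median log2 ratio of the members between 0.351 and 0.458 for AngII/PE after PBS, between 0.431 and 0.530 for AngII/PE after carboplatin, between -0.059 and -0.016 for carboplatin under saline and between 0.037 and 0.145 for carboplatin under AngII/PE. Of the members above 0 for AngII/PE against saline, 28 of 31 after PBS and 30 of 34 after carboplatin stayed above 0 in each alternative. For carboplatin against PBS, 7 of 14 under saline and 18 of 29 under AngII/PE did so. The larger shifts of the median were to 0.458 in male-called cells after PBS and, after carboplatin, to 0.530 with TMM factors, which moved the median of all genes to 0.113, and 0.529 with all kept cells; for carboplatin under AngII/PE these settings gave 0.118 and 0.145. The count at least 1.5-fold higher after PBS was 20 with the lower fold threshold tried (21.2% of all genes), where 1 was lower (21.3%). After carboplatin it was 14 with TMM (11.1%), 25 at the lower threshold (24.2%), 13 with the unnamed clusters (9.57%) and 17 with all kept cells (8.66%). For carboplatin under saline 1 member was higher at the lower threshold (5.62%) and in male-called cells (6.13%), and 1 lower at the lower threshold (7.79%), with no minimum level (11.6%), and in male-called cells (6.87%). Leaving out the cell with most Atp6v0d2 UMIs, chosen after seeing the data, changed none of its signs. The cause of these shifts was not tested. Shares of cells moved with the thinning depth in all 40 cases. No paired analysis was possible because each group is 1 library. Depth limits Atp6v0d2 and Mcoln1 most.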

Other observations

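Other cell classes of the same libraries gave their own AngII/PE to saline medians over the 36 members. The B-cell-like and cycling clusters held 10 of the 10 macrophage markers (each at a level of at least 25% of that in all kept cells), the type 2 dendritic-cell-like cluster 5, the endothelial-like clusters 1 and 7, and the fibroblast-like cluster 0. The part of macrophages or their RNA in these medians was not tested. Cycling cells stood at 0.53 after PBS (44 against 27 cells) and 0.43 after carboplatin (116 against 38). B-cell-like cells stood at 0.37 (73 against 114) and 0.48 (43 against 193). Endothelial-like cells stood at 0.22 (304 against 598) and 0.47 (354 against 555), type 2 dendritic-cell-like cells at 0.26 and 0.09, and fibroblast-like cells at 0.08 and 0.20. In these classes the medians of all genes compared lay between -0.10 and 0.03.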
